A study of Mus musculus with 8 samples.

Results

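RNA from colon epithelial cells of mice with a D116A substitution in the galactosyltransferase B3galt5 (genotype B3galt5D116A) was compared with that of mice labelled as knockout for the N-acetylglucosaminyltransferase B3gnt7 (B3gnt7-/-). The comparison used 4 of the 8 libraries of the study, chosen by genotype alone: 1 male and 1 female library of each of these genotypes. The other 4 libraries, wild-type and St6galnac6-/-, did not enter the test, and their values stand beside some results as a description. All mice were C57BL/6J and untreated, and the labels give no age and leave unsaid if each library is 1 mouse or pooled mice. The B3galt5 allele is a substitution, so its transcript can be present at any level. The part of B3gnt7 that is deleted is not given in the sources used here. The question was what separates a mouse deficient in the function of a galactosyltransferase from one that lacks an enzyme of chain extension.

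Both enzymes build the sugar chains of glycoproteins and glycolipids in the Golgi. B3gnt7 adds N-acetylglucosamine to a terminal galactose and so lengthens chains of repeated galactose and N-acetylglucosamine, including sulfated ones. B3galt5 adds galactose in a beta-1,3 linkage, which makes type 1 chains. In the colon such chains are abundant on the mucins of goblet cells and on the surface of the absorptive cells. Fucosyltransferases, sialyltransferases and sulfotransferases then cap them.

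Expression was given as FPKM (fragments per kilobase of transcript, relative to all mapped fragments) for 24346 gene symbols. Differences are B3galt5D116A minus B3gnt7-/- of log2(FPKM + 1), a scale on which a given fold appears smaller in a weakly expressed gene. The tables hold no read counts, and the smallest values did not fall on whole steps for most genes, so the depth behind a value is unknown. FPKM sums were 518482 to 639537 in the 4 libraries, and 3 to 4 of 79 ribosomal protein genes were listed at 0 in each, so that a value of 0 can be a failed estimate. Xist and Ddx3y matched the labelled sex in all 4. The B3gnt7-/- female library stood apart. Its correlation of log2 values with the other 3 was 0.971 to 0.978, against 0.986 to 0.987 among those 3, and the median absolute difference between genotypes was 0.28 in the female pair and 0.11 in the male pair. Results that rest on this library are therefore given with the value of each pair.

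Tested were the 11547 genes whose mean over the 4 libraries reached 1 FPKM, and 2 of them passed limma's test at an adjusted p under 0.05 (Benjamini-Hochberg), 0.0173% of those tested. Both were lower in B3galt5D116A, and 0 (0% of those tested) were higher. The 2 genes were below 1 FPKM in both B3galt5D116A libraries. They thus entered the test only through the B3gnt7-/- libraries, and neither passed when no filter on low values was used. At an unadjusted p under 0.05 there were 224 genes (1.94%), 102 higher (0.883%) and 122 lower (1.06%). Over all genes tested the median difference was 0.01, and 5086 (44.0%) had the same sign in the male and the female pair. Both B3galt5D116A libraries lay above both B3gnt7-/- libraries in 2145 genes (18.6%) and below both in 1837 (15.9%), and these shares are the background for the counts given for gene groups. With 2 libraries a group, an exact two-sided permutation test of a single gene cannot go below p = 0.333. The limma test had 1 residual degree of freedom beside 6.79 prior degrees of freedom, so each gene's spread rests mainly on that of the other genes, and a p-value covers no more than the variation among these 4 libraries.

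**Figure D1:**
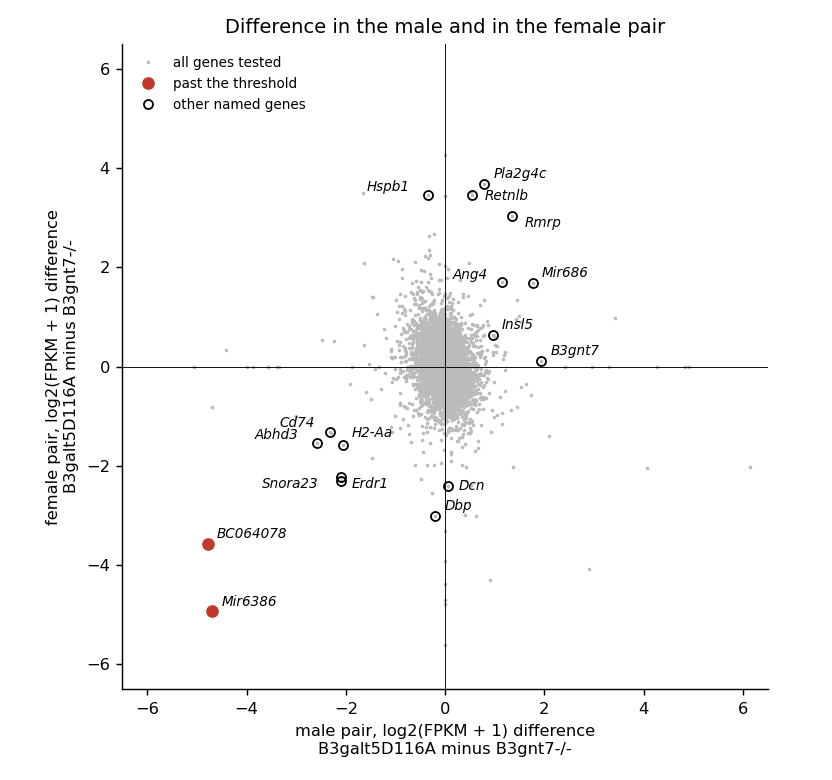
Difference in log2(FPKM + 1) between B3galt5D116A and B3gnt7-/- for each of 11547 genes, in the male pair (horizontal axis) and the female pair (vertical axis). The 2 filled points passed the test and lie in the lower left corner, below the class II genes H2-Aa and Cd74; the cloud is taller than it is wide, as the median absolute difference was 0.28 in the female pair and 0.11 in the male pair.

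The first gene that passed was Mir6386, a microRNA gene. It was listed at 0 in both B3galt5D116A libraries and stood at 24.8 and 29.5 FPKM in the B3gnt7-/- male and female libraries (log2 -4.81, SE 0.21, limma adjusted p = 0.000219). In wild-type it was at 34.7 FPKM in the male library and listed at 0 in the female, and in St6galnac6-/- at 28.6 FPKM and 0. The 2 wild-type libraries thus differed as much as the 2 genotypes did. A library of this kind, made from polyadenylated RNA, does not measure the mature microRNA. The gene is 104 bases long and lies at chr9:92267258-92267361 on the minus strand (mm10), inside Plscr1 on the opposite strand, outside its exons. Plscr1, a membrane protein that scrambles phospholipids, had 88.0 and 121 FPKM in B3galt5D116A, against 96.8 and 80.5 FPKM. The mature sequence is shown to identify the feature, as RefSeq gives it for GRCm38.p6, 5′ to 3′, with the seed (bases 2 to 8) in capitals.
mmu-miR-6386: cAUGCCUUagggugggaugcaagu

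The second was BC064078, annotated as a transcribed unprocessed pseudogene at chr6:128992952-129008040 on the plus strand. It was at 0.111 and 0 FPKM in the B3galt5D116A male and female libraries and at 29.6 and 10.9 FPKM in the B3gnt7-/- libraries (log2 -4.18, SE 0.30, limma adjusted p = 0.00566). Wild-type libraries had 0 and 0.307 FPKM and St6galnac6-/- libraries 0.133 and 0 FPKM, so that the 2 B3gnt7-/- libraries were the only ones of the 8 above 1 FPKM. Reads of a pseudogene can be shared with its relatives, and the value is uncertain in that respect. Of 12 tested genes within 1 Mb of it, limma called 0, with 0 at an unadjusted p under 0.05.

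Erdr1, a gene of the pseudoautosomal region of the sex chromosomes, came next without passing. It was at 62.7 and 62.3 FPKM in the B3galt5D116A libraries and at 271 and 297 FPKM in the B3gnt7-/- libraries, 4.54 times as much (log2 -2.16, SE 0.24, limma adjusted p = 0.0914). Wild-type had 242 and 341 FPKM and St6galnac6-/- 206 and 192 FPKM, which leaves the B3galt5D116A libraries lowest of the 8. It passed in 9 of the 15 alternative analyses, among them the fit of all 8 libraries, where it was the only gene called. Of these 9, 4 left out 1 library and set a lone library against 2, so that the lone library was assumed to vary like the other group. Abhd3, which encodes an enzyme that cleaves phospholipids, was at 3.04 and 5.74 FPKM against 23.3 and 18.6 FPKM, with 10.4 and 12.2 FPKM in wild-type (log2 -2.06, SE 0.26, limma adjusted p = 0.116). Its St6galnac6-/- male and female libraries had 2.22 and 10.9991 FPKM. The St6galnac6-/- male library thus lay below both B3galt5D116A libraries, so a low level was not particular to B3galt5D116A.

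The remaining genes with the smallest p on the lower side did not pass either. The small nucleolar RNA Snora23 was listed at 0 in both B3galt5D116A libraries and at 3.28 and 3.92 FPKM in B3gnt7-/-. Mir546 lies within an exon of the phosphatase gene Ctdsp2 on the same strand and was at 120 and 111 FPKM against 336 and 398 FPKM. Ctdsp2 itself was at 56.1 and 47.8 FPKM against 53.5 and 60.2 FPKM, so the host gene showed no such gap. Slc15a2, a peptide transporter, was at 0.241 and 3.13 FPKM against 9.02 and 7.25 FPKM, and Amph, which encodes the membrane-bending protein amphiphysin, at 1.01 and 1.03 FPKM against 3.21 and 4.09 FPKM. The haemoglobin genes Hba-a1 and Hbb-b1, which mark red blood cells, were at 8.12 and 19.7 FPKM and at 9.60 and 24.5 FPKM in B3galt5D116A. In B3gnt7-/- they were at 16.2 and 48.1 FPKM and at 16.8 and 56.2 FPKM, higher in the female library of each genotype. Gm10653, 9030025P20Rik and Tmem181c-ps complete the 15, with log2 differences of -1.82, -1.15 and -1.10.

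On the higher side 15 genes with the smallest p are named, and none passed (smallest limma adjusted p = 0.143). That value belonged to Mir686, a microRNA gene within an exon of the proteasome gene Psmb5, at 241 and 163 FPKM against 70.1 and 49.9 FPKM. Its wild-type libraries were at 307 and 87.1 FPKM. Ang4, an antimicrobial ribonuclease of intestinal secretory cells, had the next smallest p and is described with the goblet cell genes. Rmrp, the RNA of an RNA-processing ribonuclease, was at 6.196 and 7.15 FPKM against 1.83 and 0 FPKM. Rec8, a meiotic cohesin, was at 1.96 and 2.39 FPKM against 0.0794 and 0.331 FPKM, and Dnase1l2, a deoxyribonuclease of the DNase I family, at 6.32 and 11.5 FPKM against 1.71 and 5.43 FPKM. Apoc2, the activator of lipoprotein lipase, was at 10.7 and 9.25 FPKM against 4.94 and 5.66 FPKM, and G0s2, an inhibitor of fat breakdown, at 4.77 and 3.33 FPKM against 2.52 and 0.821 FPKM. Pla2g4c, a cytosolic phospholipase A2, was at 2.47 and 23.5 FPKM against 1.02 and 0.908 FPKM, a gap that came from the B3galt5D116A female library. Arl5a, H2-T22, Kctd5, Insl5, Apoo-ps, Snora24 and 2500002B13Rik had log2 differences of 0.73, 0.77, 0.71, 0.80, 1.25, 2.199 and 1.06.

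The targeted genes did not separate the genotypes past the threshold. B3gnt7 (chr1:86302832-86307305, plus strand) was at 266 and 154 FPKM in the B3galt5D116A male and female libraries and at 68.8 and 142 FPKM in the B3gnt7-/- libraries. The B3gnt7-/- libraries were the lowest of the 8, but the female one was close to the B3galt5D116A female. The log2 difference was 1.03 (SE 0.41, 95% interval 0.09 to 1.97, limma adjusted p = 0.999). By pair it was 1.94 in males and 0.12 in females. Transcript thus remained in both knockout libraries, and a gene-level value does not show whether the deleted part is among it.

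B3galt5 (chr16:96235801-96319859, plus strand) had 133 and 93.1 FPKM in B3galt5D116A, against 109.6 and 162 FPKM, and the groups overlapped (log2 -0.25, SE 0.31, 95% interval -0.96 to 0.45). St6galnac6, the sialyltransferase targeted in another genotype of the study, was at 495 and 363 FPKM and 397 and 444 FPKM (log2 0.01, SE 0.33, and -0.19 with quantile normalization). Within 1 Mb of B3galt5, limma called 0 of 7 tested genes with 1 at an unadjusted p under 0.05, and within 1 Mb of B3gnt7 it called 0 of 17 with 2 unadjusted.

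**Figure D2:**
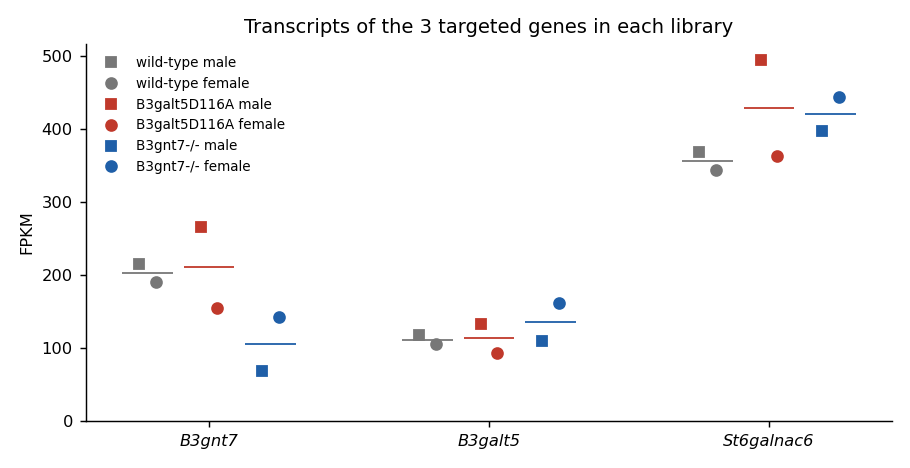
FPKM of B3gnt7, B3galt5 and St6galnac6 in each wild-type, B3galt5D116A and B3gnt7-/- library; squares are males, circles females and lines the mean of 2 libraries. B3gnt7 is lowest in the B3gnt7-/- male library at 68.8 FPKM, while the B3gnt7-/- female at 142 FPKM is near the B3galt5D116A female at 154 FPKM.

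None of the other enzymes of the pathway passed limma's test. Of 8 tested genes listed with the N-acetylglucosamine-adding enzymes, B3gnt7 alone had an unadjusted p under 0.05, and the median was -0.13. Without overlap 4 of the 8 lay below and 1 above (15.9% and 18.6% over all genes). B3gnt9, B4gat1 and B3gntl1 were lower in both B3galt5D116A libraries, with log2 differences of -0.32, -0.26 and -0.19. Of 15 galactosyltransferases, 0 were called and 0 had an unadjusted p under 0.05 (median -0.05). B4galt4, which makes beta-1,4-linked galactose and acts on sulfated chains, had the smallest p, at 32.0 and 33.2 FPKM against 24.6 and 27.4 FPKM. Galnt11, which starts O-glycans, was at 7.14 and 7.33 FPKM against 12.01 and 8.36 FPKM, the smallest p among 17 enzymes of O-glycan initiation and cores (median -0.13).

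Among the capping enzymes limma called 0 of 9 sialyltransferases (median -0.04), 0 of 7 fucosyltransferases (0.02) and 0 of 10 sulfotransferases and sulfate suppliers (0.01), with 0 at an unadjusted p under 0.05 in each. Sialyltransferases were 0.21 higher by their median in the male pair and 0.29 lower in the female pair, and St6gal1, which adds alpha-2,6-linked sialic acid to N-glycans, was at 17.6 and 14.96 FPKM against 15.4 and 27.0 FPKM. Nucleotide sugar enzymes and transporters had 0 of 23 called, 0 unadjusted and a median of 0.05. Slc35d1, a Golgi and endoplasmic reticulum transporter of nucleotide sugars, was lower in B3galt5D116A, at 14.8 and 17.9 FPKM against 21.2 and 21.8 FPKM. Of 17 lectins and glycosidases 16 had a positive difference (6112 of 11547 over all genes), with 0 called and a median of 0.10. The sign was the same in both pairs in 6 of the 17. Without overlap 3 lay above and 1 below (18.6% and 15.9% over all genes). Glb1, the lysosomal beta-galactosidase, had 60.0 and 57.2 FPKM against 26.1 and 51.5 FPKM, with a gap in the male pair.

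The MHC class II genes had lower values in B3galt5D116A than in B3gnt7-/-. These molecules present peptides from engulfed proteins to helper T cells, and are made by antigen-presenting cells and, under interferon gamma, by gut epithelium. Of 10 listed genes 6 passed the filter, both B3galt5D116A libraries lay below both B3gnt7-/- libraries in 6 of these 6 (15.9% over all genes), and 4 had an unadjusted p under 0.05 (1.06%). The median difference was -0.98, with -1.66 in the male pair and -0.63 in the female pair, and it was -1.55 without the B3gnt7-/- female library, with 6 of 6 again below (28.5% over all genes). None of the 6 passed limma's test over all genes.

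H2-Aa, the alpha chain of the class II molecule I-A (chr17:34282744-34287823, minus strand), had 2.38 and 1.89 FPKM in B3galt5D116A, against 13.1 and 7.59 FPKM, 4.86 times as much (log2 -1.82, SE 0.22, limma adjusted p = 0.102). Cd74, the invariant chain that guides class II molecules to the endosome, was at 6.43 and 4.13 FPKM against 35.9 and 11.9 FPKM (log2 -1.82, SE 0.26, limma adjusted p = 0.148). H2-Ab1, the beta chain of I-A, was at 2.58 and 3.56 FPKM against 12.5 and 4.78 FPKM, and H2-Eb1, the beta chain of I-E, at 1.65 and 1.68 FPKM against 3.96 and 3.59 FPKM. In each of these 4 genes the B3gnt7-/- male library was the higher of its pair. H2-DMb1, of the peptide-loading molecule H2-DM, was at 1.12 and 1.29 FPKM against 4.62 and 1.38 FPKM, and its partner H2-DMa at 1.37 and 1.52 FPKM against 2.37 and 2.53 FPKM.

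Wild-type libraries were near the B3galt5D116A level, with H2-Aa at 3.69 and 2.49 FPKM and Cd74 at 8.53 and 6.55 FPKM. St6galnac6-/- libraries were near or above the B3gnt7-/- level, with H2-Aa at 12.3 and 15.7 FPKM and Cd74 at 34.0 and 39.2 FPKM. The summed level of the list was 15.5 and 14.3 FPKM in B3galt5D116A, against 72.7 and 32.1 FPKM, with 21.6 and 16.7 FPKM in the wild-type libraries. Ciita, the factor that switches class II genes on, was below the filter, at 0.0286 and 0.0495 FPKM against 0.252 and 0.194 FPKM. In bulk RNA, fewer cells of a type and less RNA per cell cannot be told apart.

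**Figure D3:**
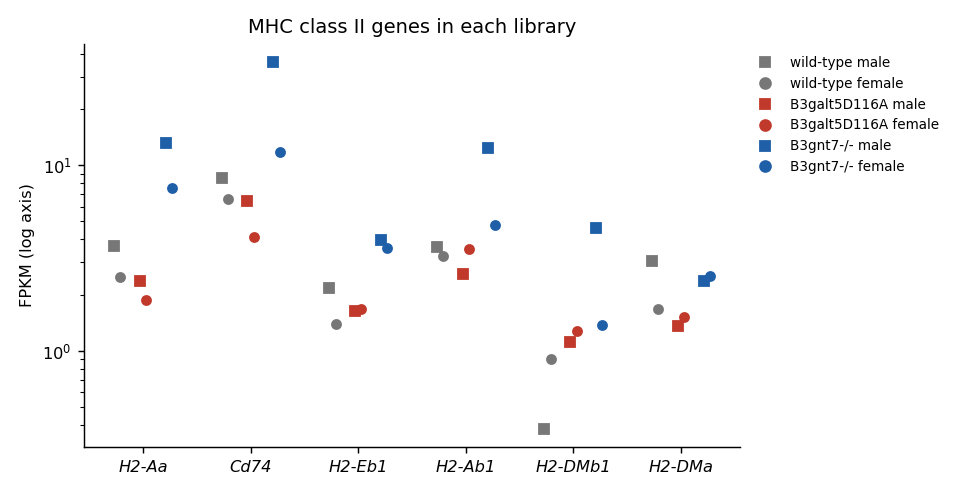
FPKM on a log axis of the 6 MHC class II genes tested, in each wild-type, B3galt5D116A and B3gnt7-/- library; squares are males and circles females. Both B3galt5D116A libraries lie below both B3gnt7-/- libraries for every gene shown, by least in H2-DMb1, where the females had 1.29 and 1.38 FPKM.

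Class II promoters share paired elements, the X box and the Y box, which hold the complex to which Ciita binds. The stretches of 130 bases before the annotated start of H2-Aa, H2-Eb1 and H2-DMb1 are shown because both elements lie in them at nearly equal distance. They are from RefSeq GRCm38.p6 and read 5′ to 3′ along the gene's strand, with an X box core (CTNGNAACT) and a Y box (TGATTGG) in capitals. The X box letters were chosen after these promoters had been read.
H2-Aa, chr17:34287824-34287953, minus strand: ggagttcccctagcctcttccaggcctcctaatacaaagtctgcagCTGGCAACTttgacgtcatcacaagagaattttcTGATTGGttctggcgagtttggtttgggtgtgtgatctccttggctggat
H2-Eb1, chr17:34305737-34305866, plus strand: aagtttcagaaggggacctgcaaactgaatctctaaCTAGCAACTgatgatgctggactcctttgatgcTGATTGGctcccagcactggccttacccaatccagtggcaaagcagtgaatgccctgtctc
H2-DMb1, chr17:34153061-34153190, plus strand: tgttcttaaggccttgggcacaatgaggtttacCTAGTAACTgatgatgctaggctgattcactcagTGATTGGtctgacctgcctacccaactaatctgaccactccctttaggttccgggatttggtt

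The first base of the X box lies 34, 33 and 34 bases before that of the Y box in H2-Aa, H2-Eb1 and H2-DMb1. Of the 6 class II genes tested, 4 had a promoter in the RefSeq table, in 5 windows of 250 bases before the start. Searched on both strands, the X box letters were in 3 of these 5 and in 3.47% of all 32851 windows. As the letters were chosen from these promoters, the first share was fixed beforehand and shows no enrichment. The Y box letters were in 3 of 5 and in 7.23% of all windows. They were also in 10 of 20 windows (50%) of the cholesterol synthesis genes described below, so they are not particular to class II genes. The Y box contains CCAAT on its other strand, so it overlaps that motif. A match describes letters only and is no measure of binding.

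Among other immune genes limma called 0 of 31 interferon response and 0 of 22 MHC class I presentation genes. Interferon response genes had a median of -0.21 over 31 tested, with -0.44 in the male pair and 0.00 in the female pair. Both B3galt5D116A libraries were below both B3gnt7-/- libraries in 12 of them and above in 2 (15.9% and 18.6% over all genes). Gbp2, an interferon-induced GTPase that attacks the vacuoles of pathogens, was at 3.03 and 1.42 FPKM against 6.56 and 3.04 FPKM, and Irgm2, of a related GTPase family, at 3.58 and 3.44 FPKM against 5.29 and 5.59 FPKM; these 2 had an unadjusted p under 0.05. Gbp7 and Oasl2 had log2 differences of -0.60 and -0.46. MHC class I presentation genes had a median of 0.01 over 22, with 2 above and 7 below without overlap (18.6% and 15.9% over all genes). The peptide transporters Tap2 and Tap1 were at 10.8 and 11.04 FPKM against 14.5 and 15.6 FPKM and at 6.78 and 6.89 FPKM against 9.61 and 8.46 FPKM, while the class I-like gene H2-T22 was at 6.62 and 5.84 FPKM against 3.56 and 2.94 FPKM. Class I genes are near-identical to each other, so a single one is uncertain.

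Markers of other cell types were present in these epithelial preparations at low levels. Of 29 T and intraepithelial lymphocyte markers 13 were tested, their summed level was 23.5 and 53.9 FPKM in B3galt5D116A, against 54.7 and 50.6 FPKM, and the median difference was -0.39 (-0.66 in males, -0.02 in females). Cd3g, of the T cell receptor complex, was at 0.952 and 2.197 FPKM against 2.42 and 4.59 FPKM, Cd8a at 0.536 and 0.821 FPKM against 1.21 and 1.71 FPKM, and Cd7 at 2.88 and 5.77 FPKM against 5.35 and 6.80 FPKM. The chemokine Ccl5 was at 3.02 and 13.7 FPKM against 17.9 and 9.33 FPKM. The B3galt5D116A male library was the lowest of the 4 in each of these genes.

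Of 23 myeloid markers 7 were tested, with a summed level of 33.5 and 40.2 FPKM against 45.3 and 44.0 FPKM and a median of -0.27. Fcer1g, a signalling chain of Fc receptors, was at 0.623 and 1.98 FPKM against 2.42 and 2.69 FPKM, and Lyz2, Cd68 and Tyrobp had log2 differences of -0.53, -0.27 and -0.40. Itgax, which marks dendritic cells, was below the filter at 0.130 and 0.129 FPKM against 0.346 and 0.390 FPKM, and S100a8, S100a9 and Cd163 were listed at 0 in all 4 libraries. Of 18 B and plasma cell markers 0 passed the filter, with summed levels of 1.24 and 0.536 FPKM against 0.545 and 0.758 FPKM, and Cd79a, Pax5 and Tnfrsf17 were listed at 0 in all 4. The lymphocyte and myeloid lists thus had negative medians over both pairs. In the female pair these were -0.02 and 0.02, against -0.63 for the class II genes. Below without overlap lay 2 of the 13 lymphocyte and 1 of the 7 myeloid markers, and above 0 of each (15.9% and 18.6% over all genes). The part of these cells in the class II difference was not tested. In the St6galnac6-/- libraries the class II genes summed to 72.3 and 80.6 FPKM, and to 21.6 and 16.7 FPKM in wild-type. The T cell markers summed to 33.8 and 28.2 FPKM, and to 36.5 and 30.6 FPKM in wild-type. The myeloid markers summed to 34.4 and 40.3 FPKM, and to 34.2 and 32.0 FPKM in wild-type.

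Stromal, endothelial and muscle markers were high in 1 library. Their summed level was 57.1 FPKM in the B3gnt7-/- female library and 18.2 to 22.6 FPKM in the other 3, and the median of 8 tested was 0.00 in the male pair, -1.17 in the female pair and -0.07 without that library. Decorin (Dcn), a matrix proteoglycan of fibroblasts, was at 18.9 FPKM there and at 2.45 to 2.73 FPKM in the other 3. The collagen gene Col3a1 was at 3.61 FPKM there and below 1 FPKM elsewhere, and Sparc at 3.67 FPKM. Vim, the filament protein of mesenchymal cells, was higher in both B3gnt7-/- libraries, at 5.36 and 8.92 FPKM against 3.70 and 2.91 FPKM. The endothelial gene Cdh5 was listed at 0 in all 4. Of 15 markers of enteric glia and neurons 0 passed the filter, with summed levels of 1.56 to 2.07 FPKM. The 15 epithelial markers, with a median of 0.09, were all tested and summed to 13803 FPKM in the B3gnt7-/- female library and to between 16550 and 17073 FPKM in the other 3.

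Cholesterol synthesis genes had lower values in B3galt5D116A than in B3gnt7-/-, with medians of the same sign in the male and the female pair. They encode the enzymes that turn acetyl-CoA into cholesterol and regulators of the pathway, which the transcription factor SREBP2 activates when cell sterol is low. Of 22 tested, 20 had a negative difference, both B3galt5D116A libraries lay below both B3gnt7-/- libraries in 17 (15.9% over all genes) and above them in 1, and 3 had an unadjusted p under 0.05 (1.06%). The median was -0.28, with -0.31 in the male pair and -0.22 in the female pair. Without the B3gnt7-/- female library it was -0.31, and 18 lay below and 1 above (28.5% and 30.1% over all genes). None passed limma's test over all genes.

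Along the pathway, Hmgcs1, which makes HMG-CoA, was at 123 and 133 FPKM against 177 and 184 FPKM. Fdft1, which commits farnesyl units to squalene, was at 34.9 and 38.9 FPKM against 49.5 and 54.7 FPKM (log2 -0.49, SE 0.20). Sqle, the squalene epoxidase, was at 46.1 and 45.5 FPKM against 58.0 and 73.1 FPKM. In these early steps both B3galt5D116A values were below both B3gnt7-/- values. Lss, which closes the sterol ring, was at 10.1 and 10.3 FPKM against 13.5 and 16.6 FPKM (log2 -0.51, SE 0.19), and Hsd17b7, which acts later on the ring, at 6.65 and 7.41 FPKM against 10.2 and 9.83 FPKM (log2 -0.46, SE 0.19). The sterol sensor gene Insig1 was at 67.2 and 69.4 FPKM against 92.1 and 78.7 FPKM, and Srebf2, which encodes SREBP2, at 54.4 and 49.2 FPKM against 56.0 and 73.6 FPKM. Ebp, an isomerase of the late pathway, was the 1 gene above in both, with a log2 difference of 0.27. Hmgcs1, Insig1, Srebf2 and Ebp are named for their place in the pathway, after their values were seen.

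Wild-type libraries lay nearer to B3gnt7-/- by the list's median, which was -0.32 for B3galt5D116A minus wild-type and -0.03 for B3gnt7-/- minus wild-type. Both medians share the wild-type libraries, whose male was higher than its female (Hmgcs1 182 and 150 FPKM, Fdft1 64.1 and 47.7 FPKM). The list summed to 1060 and 1119 FPKM in B3galt5D116A, against 1314 and 1325 FPKM. Wild-type sums were 1517 and 1185 FPKM, the female nearer to B3galt5D116A. St6galnac6-/- sums were 1020 and 1318 FPKM, the male below both B3galt5D116A libraries.

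**Figure D4:**
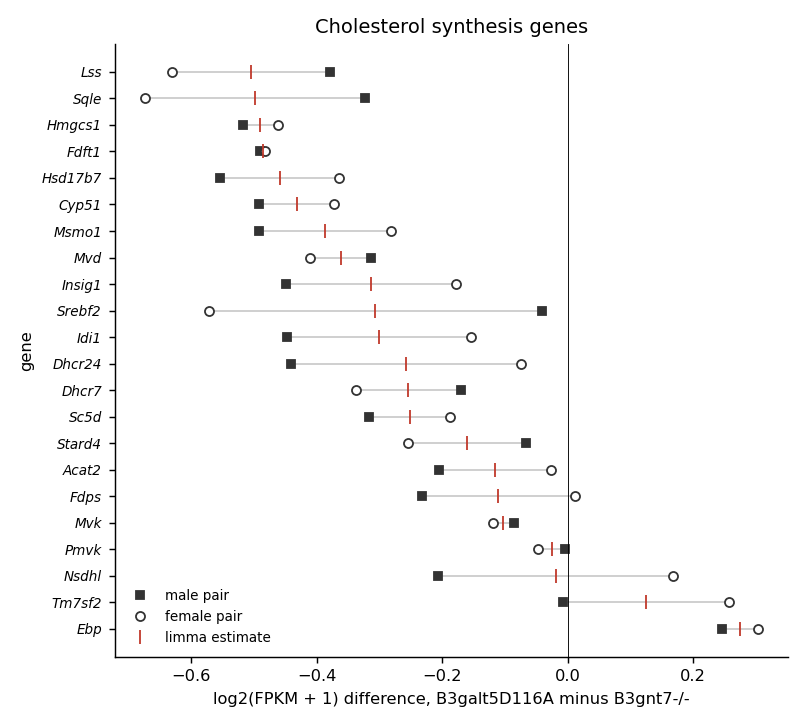
Difference in log2(FPKM + 1), B3galt5D116A minus B3gnt7-/-, for 22 cholesterol synthesis genes, with squares for the male pair, open circles for the female pair and red ticks for the limma estimate. Most genes lie left of 0 in both pairs; Ebp is right of 0 in both.

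The promoters of 17 of the 22 genes were in the RefSeq table, in 20 windows of 250 bases. The Hmgcs1, Hsd17b7 and Lss windows are shown, the first as the only 1 with the sterol regulatory element letters TCACNCCAC and the other two as genes with an unadjusted p under 0.05. That element and every CCAAT box, here read as ATTGG on the opposite strand, are in capitals.
Hmgcs1, chr13:119690101-119690350, plus strand: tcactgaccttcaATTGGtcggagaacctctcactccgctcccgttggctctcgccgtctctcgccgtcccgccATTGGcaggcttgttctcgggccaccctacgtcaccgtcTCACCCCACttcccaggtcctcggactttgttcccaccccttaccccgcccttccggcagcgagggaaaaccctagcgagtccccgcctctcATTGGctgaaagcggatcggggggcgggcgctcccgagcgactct
Hsd17b7, chr1:169969206-169969455, minus strand: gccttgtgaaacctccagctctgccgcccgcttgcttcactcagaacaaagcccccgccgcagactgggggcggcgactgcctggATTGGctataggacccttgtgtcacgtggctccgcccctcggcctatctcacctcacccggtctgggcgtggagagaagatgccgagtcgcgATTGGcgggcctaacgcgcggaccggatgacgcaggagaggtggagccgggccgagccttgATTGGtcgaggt
Lss, chr10:76531355-76531604, plus strand: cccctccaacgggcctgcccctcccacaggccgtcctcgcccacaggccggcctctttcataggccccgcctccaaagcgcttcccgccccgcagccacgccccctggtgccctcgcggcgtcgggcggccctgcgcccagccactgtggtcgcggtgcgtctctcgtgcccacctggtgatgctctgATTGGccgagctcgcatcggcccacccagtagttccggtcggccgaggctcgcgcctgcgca

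On both strands, CCAAT letters were in 16 of the 20 windows (80%) and in 33.8% of all 32851 windows. The share was also 80% in the class II windows, 4 of 5, so these letters are not particular to the cholesterol genes. The sterol element letters were in 1 of 20 (5%) and in 1.05%. Elements with other letters, or farther from the start, were not searched.

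No gene of the goblet, mucus, tuft and enteroendocrine lists passed limma's test over all genes. Among 25 goblet cell genes limma called 0 and the median was -0.05, with 0.20 in the male pair and -0.29 in the female pair. Ang4 had 61.5 and 191 FPKM in B3galt5D116A, against 27.3 and 58.2 FPKM (log2 1.42, SE 0.24, limma adjusted p = 0.366). Wild-type had 3.98 and 7.56 FPKM, and St6galnac6-/- 361 and 158 FPKM. Retnlb, a goblet cell protein that acts against bacteria, was at 63.6 and 265 FPKM against 43.5 and 23.3 FPKM (log2 1.997, SE 0.56, limma adjusted p = 0.999), and its B3galt5D116A female library stood out. Itln1, an intelectin that binds microbial sugars, was at 1.52 and 7.44 FPKM against 1.10 and 2.43 FPKM. Spdef, a factor of goblet cell maturation, was at 67.7 and 61.7 FPKM against 43.9 and 58.2 FPKM, and Bcas1 at 29.1 and 20.1 FPKM against 26.8 and 38.6 FPKM.

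Of 12 mucins and mucus proteins 0 were called (median -0.12, with 0.15 in males and -0.51 in females), and the mucus protein Fcgbp was at 315 and 235 FPKM against 222 and 553 FPKM. Antimicrobial and acute phase genes, which hold Ang4, Retnlb and Itln1 as well, had a median of 0.14 over 20. Of these, 6 lay above and 0 below without overlap (18.6% and 15.9% over all genes). Of 7 tuft cell genes 0 were called (median -0.15).

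Enteroendocrine genes had a median of 0.32 over the 13 of 26 tested, and of 0.08 with no filter on low values, with 4 above and 0 below without overlap (18.6% and 15.9% over all genes) and 3 at an unadjusted p under 0.05 (0.883%). The hormones led them. Insl5, an insulin-like peptide of the distal colon (chr4:103017872-103026842, minus strand), was at 51.8 and 46.2 FPKM against 26.2 and 29.2 FPKM, 49.0 ± 3.99 against 27.7 ± 2.15 (SD, n = 2), with a log2 difference of 0.80 (SE 0.21). Wild-type libraries had 11.04 and 12.996 FPKM, so both mutants were above them, B3galt5D116A by more. Pyy, an appetite-suppressing peptide, was at 68.2 and 62.9 FPKM against 54.5 and 31.0 FPKM, and Ttr, the thyroid hormone carrier, at 49.6 and 41.0 FPKM against 32.5 and 26.3 FPKM. Somatostatin (Sst) was at 7.70 and 8.67 FPKM against 3.89 and 7.95 FPKM. Over the list the male pair had a median of -0.25 and the female pair of 0.68. The median without the B3gnt7-/- female library was -0.04, and 8 of the 13 genes were lowest in that library. The sign was the same in both pairs in 5 of the 13, among them Insl5, Pyy, Ttr and Sst, each higher in B3galt5D116A.

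Absorptive colonocyte genes had a median of 0.03 over 33, with 4 above and 4 below without overlap (18.6% and 15.9% over all genes). Fxyd4, a regulator of the sodium pump, was at 42.2 and 53.9 FPKM against 17.8 and 43.4 FPKM, with 92.8 and 110 FPKM in wild-type, and Slc37a2, a sugar-phosphate exchanger, at 56.5 and 112 FPKM against 54.2 and 27.8 FPKM. Stem cell and Wnt target genes had a median of -0.08 over 17. Smoc2 was at 21.9 and 18.3 FPKM against 12.9 and 15.2 FPKM, and the stem cell factor Ascl2 at 2.57 and 1.86 FPKM against 3.86 and 3.30 FPKM. Tight junction genes had a median of 0.00 over 19. The pore-forming Cldn2 was at 99.3 and 103 FPKM against 76.7 and 72.4 FPKM, and Cldn8, which seals junctions, at 62.3 and 55.2 FPKM against 42.4 and 46.4 FPKM. Colon position genes (median -0.08 over 18) and keratins (0.07 over 9) had 0 genes called, and Krt14, at 1.12 and 0.675 FPKM against 1.97 and 2.23 FPKM, was the 1 gene of those lists at an unadjusted p under 0.05.

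Several lists had a larger median in the female pair than in the male pair, with their lowest values in the B3gnt7-/- female library, and the difference between the pairs was not tested. Heat shock chaperones, which refold damaged proteins, had a median of 1.27 in the female pair and -0.12 in the male pair over 20 genes, 17 of them were lowest in that library, and without it the median was -0.02. Hspb1 was at 44.9 and 43.0 FPKM in B3galt5D116A, 57.3 FPKM in the B3gnt7-/- male and 3.002 FPKM in the B3gnt7-/- female. Hsph1 was at 109, 123, 128 and 18.5 FPKM in the same order. The cochaperones Fkbp4 and Ahsa1 were at 171 and 186 FPKM against 137 and 100.99 FPKM and at 92.4 and 114 FPKM against 89.0 and 50.4 FPKM.

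Proliferation genes had a median of 0.71 in the female pair and -0.08 in the male pair, 29 of 30 were lowest in the B3gnt7-/- female library, and without it the median was 0.01. Birc5, a protein of chromosome segregation, was at 44.7 and 55.2 FPKM against 41.4 and 22.99 FPKM, Ube2c, which drives exit from mitosis, at 56.4 and 69.3 FPKM against 56.1 and 30.4 FPKM, and the mitotic kinesin Kif20a at 11.2 and 11.3 FPKM against 9.98 and 5.15 FPKM. Oxidative phosphorylation genes were lowest in that library in 30 of 30, with medians of 0.47 in the female pair and 0.00 in the male pair and of 0.06 without it. The complex I gene Ndufb8 was at 430 and 435 FPKM against 373 and 330 FPKM and the complex II gene Sdhb at 301 and 345 FPKM against 291 and 236 FPKM. The female library's FPKM sum was the lowest of the 4, its stromal markers the highest, and their part in these differences was not tested.

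Endoplasmic reticulum stress genes (median 0.21 over 25), hypoxia and glycolysis genes (0.13 over 26) and fatty acid oxidation genes (0.07 over 22) had 0 called and 0 at an unadjusted p under 0.05. Xenobiotic metabolism genes had a median of 0.15 over 41. The glutathione transferases Gsta3 and Gsta1 were at 24.9 and 23.6 FPKM against 17.1 and 14.9 FPKM and at 15.5 and 22.8 FPKM against 15.1 and 5.85 FPKM, and the drug exporter Abcb1a at 155 and 177 FPKM against 204 and 297 FPKM. Immediate early genes had a median of -0.03 over 32, with 1 above and 11 below without overlap (18.6% and 15.9% over all genes). By pair the median was -0.22 in males and 0.22 in females, and 31 of the 32 were negative in the male pair. Without the B3gnt7-/- female library 1 lay above and 29 below (30.1% and 28.5% over all genes). The stress gene Gadd45b was at 41.1 and 43.6 FPKM against 38.4 and 14.9997 FPKM, and the transcription factor Egr2 at 22.6 and 24.6 FPKM against 24.8 and 61.0 FPKM. Chemokines and NF-kB targets had a median of 0.07 over 22. Ccl20, which attracts lymphocytes to the epithelium, was at 15.5 and 13.7 FPKM against 12.4 and 3.38 FPKM, and Cxcl1 and Cxcl10 at 0.704 and 0.781 FPKM in the B3gnt7-/- female library against 3.81 FPKM or more in the other 3.

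Circadian clock genes had a median farther below 0 in the female pair, and 12 of 17 were highest in the B3gnt7-/- female library and 4 lowest. Their median was -0.31 over 17, with -0.06 in the male pair, -0.66 in the female pair and -0.14 without the B3gnt7-/- female library. At an unadjusted p under 0.05, 4 were lower and 1 higher (1.06% and 0.883% over all genes), and 0 were called. The output factors Dbp and Tef were at 3.08 and 1.33 FPKM against 3.69 and 17.7 FPKM and at 8.43 and 5.76 FPKM against 9.01 and 25.0 FPKM. The repressors Nr1d2 and Ciart were at 14.2 and 11.8 FPKM against 16.5 and 27.6 FPKM and at 1.55 and 2.13 FPKM against 2.28 and 5.88 FPKM. Arntl, the activator of these genes, was the higher 1, at 22.3 and 23.7 FPKM against 19.3 and 11.5 FPKM. These transcripts cycle over the day, and the labels give no hour of collection.

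Medians near 0 depended on the scaling of the libraries. With quantile normalization those of the fucosyltransferases, nucleotide sugar genes, absorptive colonocyte, fatty acid oxidation, MHC class I, tight junction, keratin and epithelial lists turned from 0.00 to 0.09 into -0.12 to -0.03. The filter on low values mattered for lists with weakly expressed members. With every member above 0 FPKM in at least 1 library included, the medians moved closer to 0, to -0.62 for MHC class II genes, -0.16 for clock genes, -0.14 for T and intraepithelial lymphocyte markers, -0.13 for myeloid markers, -0.09 for stromal markers and -0.05 for mucus and for tuft cell genes. The tuft cell median was 0.21 when the mean had to reach 5 FPKM. The 5 sex-linked genes tested had a median of 0.05, with 0 called and 0 at an unadjusted p under 0.05.

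**Figure D5:**
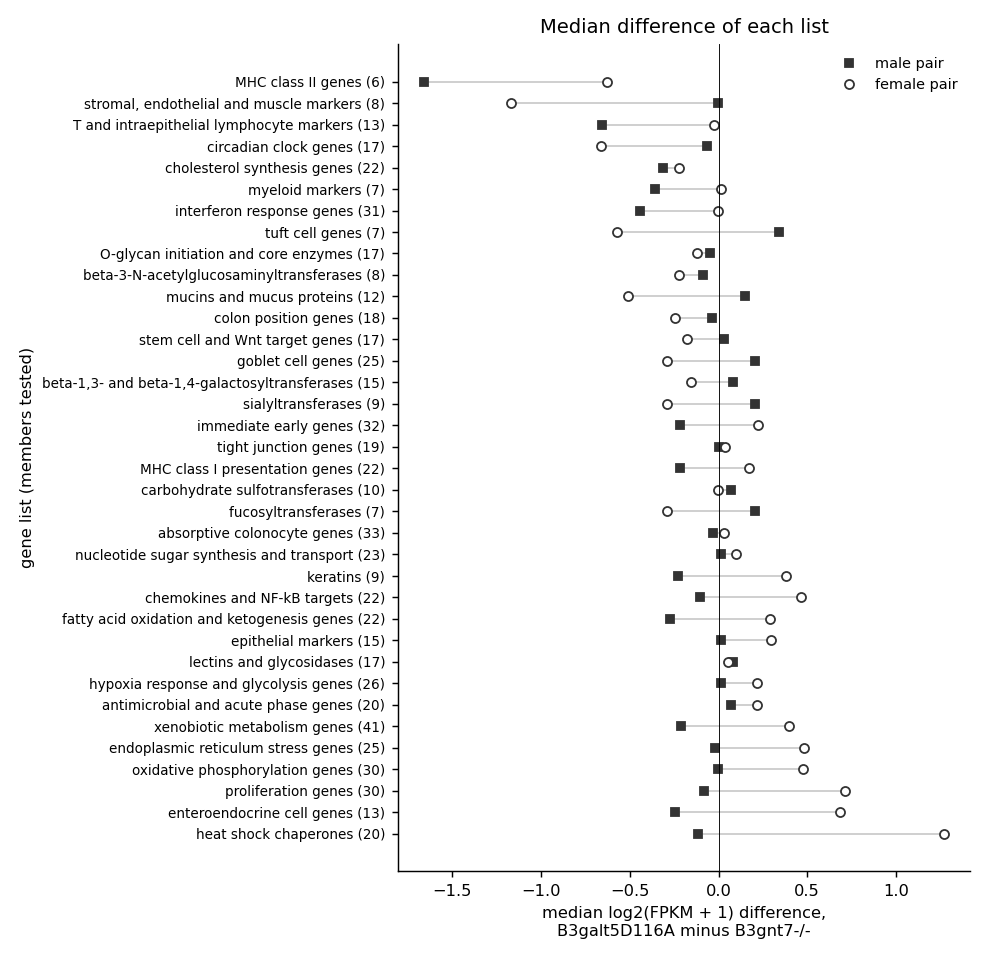
Median difference in log2(FPKM + 1), B3galt5D116A minus B3gnt7-/-, of each gene list in the male pair (squares) and the female pair (open circles), ordered by the limma median, with the number of members tested. MHC class II and cholesterol synthesis genes are below 0 in both pairs, while heat shock, enteroendocrine and proliferation genes are above 0 in the female pair only.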

How the data were processed

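Colon epithelial RNA was isolated by miRNeasy Micro Kit, and TruSeq stranded mRNA libraries were made, per the labels' protocols. Cuffdiff (2.2.1), TopHat2 (2.1.1), SAMtools (0.1.18), Bowtie2 (2.2.8) and the build mm10 are given, per the submitters' processing notes; parameters and annotation are not given in the sources used here. The authors deposited FPKM values per gene, 1 table a library. Samples were grouped by the genotype label.

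From these, log2(FPKM + 1) was fitted with limma 3.58.1 in R 4.3.3 (lmFit, then eBayes, trend=TRUE) over the 4 libraries, genotype and sex being the terms, for genes with a mean of 1 FPKM or more. P-values were two-sided and adjusted by Benjamini-Hochberg over all 11547 genes (threshold 0.05). On simulated data the prior degrees of freedom varied widely between draws, and in some draws false calls were more frequent than the threshold allows, so a call rests on an uncertain spread. Positions are GENCODE M21 by symbol (96.4% of genes tested); promoters and microRNAs are RefSeq GRCm38.p6. With depth unknown, no counting interval is given.

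The genotypes, the 39 gene lists and the rule for names were chosen with earlier results of these data known. Named are the targeted genes, 15 genes a direction (those past the threshold, then the smallest p with the same sign in both sexes), up to 4 members a list (past the threshold, else smallest p), and genes past the threshold within 1 Mb of B3galt5 or B3gnt7, of which there were 0. Others were chosen after their values were seen: hosts of small RNA genes, Ciita, Itgax, H2-DMb1, H2-DMa, Arntl, further cholesterol genes, markers listed at 0, and the genes of the chromosome 17 interval in the closing section. Of the cholesterol list, some genes are not reported here, and its values are over the others. Alternatives were each library left out, quantile normalization, a pseudocount of 0.1 or 5, all 8 libraries fitted together, a robust prior variance, a constant one, median centring, the sex term dropped, and a filter at a mean of 5 FPKM or none; leaving out small RNA genes, and list counts without the B3gnt7-/- female library, were added after seeing the data.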

Additional observations from a re-analysis of the deposited data

Results flagged for a closer look

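In 13 gene lists the male and the female pair had medians of opposite sign, each at least 0.1 from 0. With 1 library of each sex in a genotype the difference between the pairs was not tested. As female minus male, it was positive for heat shock chaperones (1.39), enteroendocrine (0.93), keratin (0.61), xenobiotic metabolism (0.61), chemokine and NF-kB (0.57), fatty acid oxidation (0.57), immediate early (0.44) and MHC class I genes (0.39). It was negative for tuft cell genes (-0.91), mucins and mucus proteins (-0.66), sialyltransferases (-0.50), goblet cell genes (-0.50) and fucosyltransferases (-0.49). The B3gnt7-/- female library was the highest of the 4 in 8 of 12 mucus genes, 13 of 25 goblet genes and 5 of 7 tuft genes.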

How the results depend on the processing

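The count of 2 genes past the threshold became 4 with a pseudocount of 0.1 or a mean of at least 5 FPKM, 1 with a pseudocount of 5 or quantile normalization, 0 with no filter (limma; 431 at an unadjusted p under 0.05), 1 in the fit of all 8 libraries and 9 with a robust prior variance. It was 2 with median centring, with a constant prior variance and, with Erdr1 in place of BC064078, with no sex term. Leaving out 1 library, with no sex term and the lone library assumed to vary like the other group, gave 10 to 38, the most without the B3gnt7-/- male library, and leaving out small RNA genes, chosen after seeing the data, gave 1. Genes at an unadjusted p under 0.05, 224 in the report, ranged from 142 to 2090. The prior degrees of freedom ranged from 3.64 to 12.93, beside 1 residual degree of freedom in the fit reported. Mir6386 passed in 12 of 14 alternatives, BC064078 in 10 of 15, Erdr1 in 9 of 15 and H2-Aa in 3 of 15. Of 119 genes named, 104 had the same direction in every alternative. Most were picked by small p, many also by the same sign in both sexes, in the same libraries. Such a choice favours a kept direction, so this count is no further support. The St6galnac6 log2 difference turned to -0.19 with quantile normalization and to -0.21 and -0.0677 without the B3galt5D116A male and the B3gnt7-/- male library. The B3galt5 log2 difference turned to 0.00227 and 0.0233 without the B3galt5D116A female and the B3gnt7-/- female. Without the B3galt5D116A male, Ccl5 turned to 0.0746 and Cd68 to 0.0283, and without the B3galt5D116A female, Itln1 turned to -0.0929. Without the B3gnt7-/- female library, St6gal1 (0.0692), Lyz2 (0.12), Tyrobp (0.17), Dcn (0.0852), Col3a1 (0.0309), Sparc (0.14), Fcgbp (0.29), Hspb1 (-0.37), Hsph1 (-0.15) and Cxcl10 (-0.0945) turned. The medians of MHC class II (-1.82 to -0.55) and cholesterol synthesis genes (-0.37 to -0.23) were negative in 15 of 15 alternatives. The reported fit compares the genotypes within sex; the labels give no other pairing. The causes were not tested.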

Other observations

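Genes at an unadjusted p under 0.05 lay close together in 1 interval of chromosome 17, a pattern chosen after the data were seen. Counted in 513 intervals of 5 Mb, chromosome 17 from 20 to 25 Mb (mm10) held 10 of 75 tested genes, 7 higher and 3 lower in B3galt5D116A, and no other interval held more than 4; 364 held 0. Each of the 10 had no overlap between the genotypes. Their selection by p in the same libraries favours such genes, so this is no further support. Hagh, which detoxifies methylglyoxal products, was at 60.5 and 72.6 FPKM against 36.6 and 41.8 FPKM, and its neighbour Fahd1, a mitochondrial decarboxylase, at 44.4 and 46.2 FPKM against 28.4 and 31.7 FPKM. Kctd5 was at 34.6 and 34.1 FPKM against 19.8 and 21.5 FPKM, and Eci1, of fatty acid oxidation, at 55.7 and 73.9 FPKM against 44.0 and 43.0 FPKM. Abca3, a lipid transporter, was lower at 16.5 and 13.9 FPKM against 26.1 and 26.1 FPKM, with Tbc1d24 at 2.80 and 2.86 FPKM against 4.50 and 6.63 FPKM and Prss41 at 0.859 and 0.901 FPKM against 2.75 and 2.79 FPKM. Kremen2, Flywch2 and Dnase1l2 had log2 differences of 0.66, 0.60 and 1.20. None of the 10 passed limma's test over all genes. Neither B3galt5, on chromosome 16, nor B3gnt7, on chromosome 1, lies there. Of the intervals with 4 such genes, chromosome 18 from 10 to 15 Mb held 4 of 19, all lower, Abhd3 among them. Chromosome 17 from 30 to 35 Mb held 4 of 100, 1 higher and 3 lower. The 3 were the class II genes H2-Ab1, H2-Aa and H2-Eb1. All of chromosome 17 held 23 of 599 (3.84%), the largest share of any chromosome, against 1.94% over all genes.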
